A study of Homo sapiens with 9 samples.

Results

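The clustered histone genes are the histone genes that lie in groups on human chromosomes 1 and 6, with a single further H4 gene on chromosome 12, and that carry the older symbols HIST1, HIST2, HIST3 and HIST4. They were taken by symbol from the deposited gene list, as every entry that starts with one of these names followed by the class H1, H2A, H2B, H3 or H4, leaving out 3 duplicate entries with a number added to the symbol, all 3 at 0. This gave 76 of 44608 entries, with 6 genes of class H1, 18 of H2A, 21 of H2B, 16 of H3 and 15 of H4. Of these, 56 belong to the HIST1 cluster, 16 to HIST2, 3 to HIST3 and 1 to HIST4. The libraries came from U2OS, a human osteosarcoma cell line, treated for 48 h with an siRNA at 75 nM and a lipid transfection reagent. The siRNA was directed at NFKB2 (siNFKB2), at RELB (siRELB) or was non-silencing (siNS), with 3 libraries in each group, and no group was left untransfected. NFKB2 encodes p100, the precursor of p52, and RELB encodes its usual partner in the noncanonical NF-kB pathway. RNA was selected with oligo-dT before library preparation. Whether the numbered libraries of a group stem from separate cultures is not given in the labels. The p-values therefore measure the spread among the libraries only, and that spread may be technical.

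Histones H2A, H2B, H3 and H4 form the core particle around which DNA is wrapped, and H1 binds the DNA between particles. Most clustered histone genes are switched on during S phase to supply chromatin for new DNA, and their mRNAs end in a conserved stem-loop in place of a poly(A) tail. The stem-loop is bound by SLBP, which guides processing, translation and decay. Some clustered genes also make a longer, polyadenylated mRNA from a signal beyond the stem-loop, chiefly in cells that have left the cycle or are differentiating. Oligo-dT selection takes the tailed form, so a level here is a level of whatever tailed or carried-over RNA was captured. That can include carried-over stem-loop mRNA, whose whole amount is not measured here.

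Both kinds of 3′ end can be read from the annotated transcripts of genes that carried the results. The windows that follow, 30 bases each except for the HIST1H4H signal, which is cut at the transcript's end, were read from GENCODE 29 transcripts (GRCh38), 5′ to 3′, with the stem-loop or the poly(A) signal in capitals. They are shown because the same transcript model of HIST2H2BE and of HIST1H4H holds a stem-loop and, much further on, a signal that the tailed form would use. In HIST2H2BE they begin at bases 450 and 2171 of the transcript, and in HIST1H4H at bases 493 and 2147.
HIST2H2BE stem-loop: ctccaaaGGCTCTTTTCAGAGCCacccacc
HIST2H2BE poly(A) signal: gctattgttattAATAAAgttaccaattaa
HIST1H4H stem-loop: aaccaaaGGCCCTTTTCAGGGCCgcccact
HIST1H4H poly(A) signal: gaattgtgaaaaAATAAAtgtttaagcca
HIST1H2BD stem-loop: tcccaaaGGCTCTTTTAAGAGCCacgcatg
HIST1H2BD poly(A) signal: aaagttataattAATAAAatctgcggagaa
HIST1H2BG stem-loop: actcaaaGGCTCTTTTCAGAGCCactcaag
The HIST2H2BE and HIST1H2BG stem-loops have the same 16 letters. HIST1H2BD and HIST1H4H each have other letters in the stem or loop. No poly(A) signal was found in the last 40 bases of the annotated HIST1H2BG transcript, searched for AATAAA and ATTAAA. The models of HIST1H2BK, HIST1H1C and HIST1H4A in this annotation stop at or close to the coding sequence and show neither element.

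Promoter windows, from 250 bases before to 50 after each start, were available for 66 of the 76 genes in RefSeq (GRCh38.p14). Searched on both strands, the letters CCAAT stood in 84.8% of them, against 34.6% of all 35116 promoters. CCAAT was in every H1, H2A, H2B and H3 window and in 23.1% of the H4 windows. TATAAA stood in 66.7% of member promoters, against 11.5% of all promoters. ATGCAAA, part of the octamer known from H2B promoters, stood in 77.8% of the 18 H2B windows and 68.8% of the 16 H2A windows, against 4.46% of all promoters. Many H2A and H2B genes lie head to head with their starts close together, so that their windows share bases and are not separate observations. The windows shown next cover 30 bases around this octamer in 4 H2B genes that were higher in siNFKB2 cells, with octamer and TATAAA letters in capitals. The last line is the H2A partner of HIST2H2BE, where the same octamer is read on the other strand.
HIST2H2BE, chr1:149886703-149886732, minus strand: cctaaTTTGCATaaggtggtTATAAAagaa
HIST1H2BK, chr6:27146879-27146908, minus strand: ccttaTTTGCATgagaggtcctaTATAAAa
HIST1H2BJ, chr6:27132817-27132846, minus strand: ccttaTTTGCATaagcgattctaTATAAAa
HIST1H2BG, chr6:26216711-26216740, minus strand: ctttaTTTGCATgaaaggccTATAAAagga
HIST2H2AC, chr1:149886716-149886745, plus strand: accttATGCAAAttagggctccgaaagtcg
In the 4 H2B windows the octamer began 45 to 47 bases before the annotated start and TATAAA followed it. Of the other H2B genes that rose, HIST1H2BC had its octamer 122 bases before the start, with no TATAAA in the window, and HIST1H2BD had none. In HIST2H2AC it began 197 bases before the start of that gene. The NF-kB consensus stood in 3 of the 66 member promoters (4.55%), all of class H4, against 5.91% of all promoters, and in 0 of the 21 windows of genes that could be tested. That says only that those letters are not in these windows.

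Few clustered histone genes were detected well. Each library held 15011789 to 19279572 counts, of which 4863 to 9492, or 0.0256% to 0.0530%, fell on the 76 genes. At 0 in all 9 libraries were 30 genes, among them 11 of the 16 H3 genes. A further 19 never reached 10 counts. The genes at 0 lay in 11 runs of entries at 0, which were from 1 to 15 entries long. The HIST3 run spans 15 entries, members and others, so a gene listed at 0 here is not shown to be silent. The filter on low counts kept 23 genes for testing: 2 H1, 4 H2A, 9 H2B, 4 H3 and 4 H4. In counts not adjusted for transcript length, 8 genes held 94.9% of all member counts. HIST1H2BK held 34.6%, HIST1H1C 29.4%, HIST2H2BE 8.69%, HIST1H2BD 7.39%, HIST1H2AC 6.47% and HIST1H2BJ 5.18%.

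NFKB2 mRNA, as a check of the labels, was at 5.26, 22.9 and 48.4 CPM (counts per 1000000 of the scaled library) in siNFKB2 libraries, against 80.7, 126 and 117 CPM in siNS libraries. It fell in siNFKB2 cells (log2 fold change -2.09, SE 0.56, adjusted p = 0.021, edgeR quasi-likelihood test), and siNFKB2 library 3 kept 44.8% of the siNS mean. RELB mRNA was at 2.66, 4.66 and 5.36 CPM in siRELB libraries, against 17.1, 30.3 and 34.1 CPM in siNS libraries (log2 fold change -2.69, SE 0.37, adjusted p = 0.00881, edgeR). Both targets lost their call under some alternatives of the edgeR fit. NFKB2 lost it with only the 6 libraries compared, and without siNFKB2 library 2 or siNS library 2 or 3 (adjusted p up to 0.0936). RELB lost it without siNS library 3 or siRELB library 2 (up to 0.0591). The 3 libraries numbered 1 stood apart together, their deviations from the group means correlating at 0.54 to 0.59 across genes. In the marker lists, 9 of 10 genes known from U2OS cells were above 1 CPM in every library. The 6 blood markers summed to 2.15 to 4.78 CPM in siNFKB2, 4.92 to 7.33 CPM in siRELB and 5.06 to 6.99 CPM in siNS libraries, with CD3E at 0. Epithelial markers were not low. These 6 summed to 573 to 676 CPM in siNFKB2, 635 to 721 CPM in siRELB and 630 to 929 CPM in siNS libraries. Of them, 4 were above 1 CPM in every library, with KRT18 and KRT8 the highest. CDH1 was called higher in both knockdowns against siNS. KRT8 was called lower in siNFKB2 cells (log2 fold change -0.94, adjusted p = 0.0015, edgeR), and EPCAM and KRT18 were not called against siNS. Of the U2OS markers, COL5A1, COL1A1, COL1A2 and RUNX2 were called lower in siNFKB2 cells, and no other was called against siNS. Neural markers summed to 9.84 to 25.1 CPM and endothelial markers to 1.37 to 2.77 CPM over the 9 libraries.

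In siNFKB2 cells the clustered histone genes that rose were mostly of class H2B. The 7 genes higher than in siNS cells were HIST1H4H and 6 of the 9 tested H2B genes, HIST2H2BE, HIST1H2BK, HIST1H2BJ, HIST1H2BD, HIST1H2BC and HIST1H2BG, by 1.93-fold to 3.08-fold. HIST1H4A was the 1 gene that fell. The 7 of 23 tested genes that rose (30.4%) stand beside 12.6% of the 14815 genes tested in all, the 1 that fell beside 13.5%, and the 8 called in either direction beside 26.1%. The median log2 fold change was 0.27 over the 23 genes and -0.0037 over all genes. Bulk RNA cannot tell fewer cells with a given mRNA apart from less of it per cell.

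HIST2H2BE (H2BC21, chr1:149884459-149886652, minus strand) encodes an H2B protein and is known for a long polyadenylated transcript. Its level was 51.7, 47.1 and 41.7 CPM in siNFKB2 libraries, 33.9, 33.2 and 30.5 CPM in siRELB libraries, and 17.4, 16.8 and 16.1 CPM in siNS libraries. The 3 groups did not overlap, with siRELB between the other two. The gene rose against siNS in siNFKB2 cells (log2 fold change 1.48, SE 0.12, adjusted p = 0.000182, edgeR) and in siRELB cells (0.96, SE 0.12, adjusted p = 0.00691), and it was higher in siNFKB2 than in siRELB cells (0.53, SE 0.12, adjusted p = 0.0103).

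HIST1H2BK (H2BC12, chr6:27146418-27146798, minus strand), a further H2B gene, held the most counts of the family. It was at 195, 234 and 221 CPM in siNFKB2 libraries, 80.7, 72.4 and 64.7 CPM in siRELB libraries, and 91.4, 111 and 98.1 CPM in siNS libraries. Every siNFKB2 library lay above every siNS library, and every siRELB library lay below them. The increase in siNFKB2 cells passed the test against siNS (log2 fold change 1.11, SE 0.13, adjusted p = 0.000399, edgeR) and against siRELB (1.58, SE 0.13, adjusted p = 0.000134). The siRELB difference from siNS did not (-0.46, SE 0.13, adjusted p = 0.104). Of the 50-base windows of its annotated GENCODE transcript, which holds the coding sequence alone, 22.6% also occur in another clustered histone gene. How reads from such windows were counted is not stated, and their share of its reads was not measured.

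HIST1H2BJ (H2BC11, chr6:27125897-27132750, minus strand) was at 26.5, 25.4 and 22.0 CPM in siNFKB2, 20.5, 20.5 and 20.5 CPM in siRELB and 12.0, 12.3 and 11.6 CPM in siNS libraries. It rose in both knockdowns, by 1.04 (SE 0.12, adjusted p = 0.000439, edgeR) in siNFKB2 and by 0.78 (SE 0.12, adjusted p = 0.0153) in siRELB cells on the log2 scale. Its siNFKB2 and siRELB libraries did not overlap either, but that difference missed the threshold (0.26, SE 0.12, adjusted p = 0.136).

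HIST1H2BD (H2BC5, chr6:26158146-26171349, plus strand) was at 36.1, 37.3 and 35.4 CPM in siNFKB2, 27.9, 27.6 and 25.1 CPM in siRELB and 16.2, 21.8 and 18.4 CPM in siNS libraries. The groups did not overlap and stood in the order seen for HIST2H2BE. It rose in siNFKB2 cells (log2 fold change 0.95, SE 0.13, adjusted p = 0.000995, edgeR), whereas the siRELB value of 0.52 (SE 0.13) missed the threshold (adjusted p = 0.0874).

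HIST1H2BC (H2BC4, chr6:26114873-26123926, minus strand) was at 8.91, 10.8 and 9.73 CPM in siNFKB2, 7.33, 5.31 and 3.72 CPM in siRELB and 4.31, 3.81 and 3.62 CPM in siNS libraries. Its siRELB libraries ran from within the siNS range to well above it, while all siNFKB2 libraries were higher than both (siNFKB2 against siNS, log2 fold change 1.32, SE 0.24, adjusted p = 0.00302, edgeR). HIST1H2BG (H2BC8, chr6:26215159-26216692, minus strand) had 3.11, 3.48 and 2.78 CPM in siNFKB2, 1.02, 1.19 and 1.59 CPM in siRELB and 1.42, 1.13 and 0.604 CPM in siNS libraries. Only its siNFKB2 libraries stood apart (siNFKB2 against siNS, 1.57, SE 0.32, adjusted p = 0.00581), and the siRELB and siNS libraries overlapped.

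**Figure D1:**
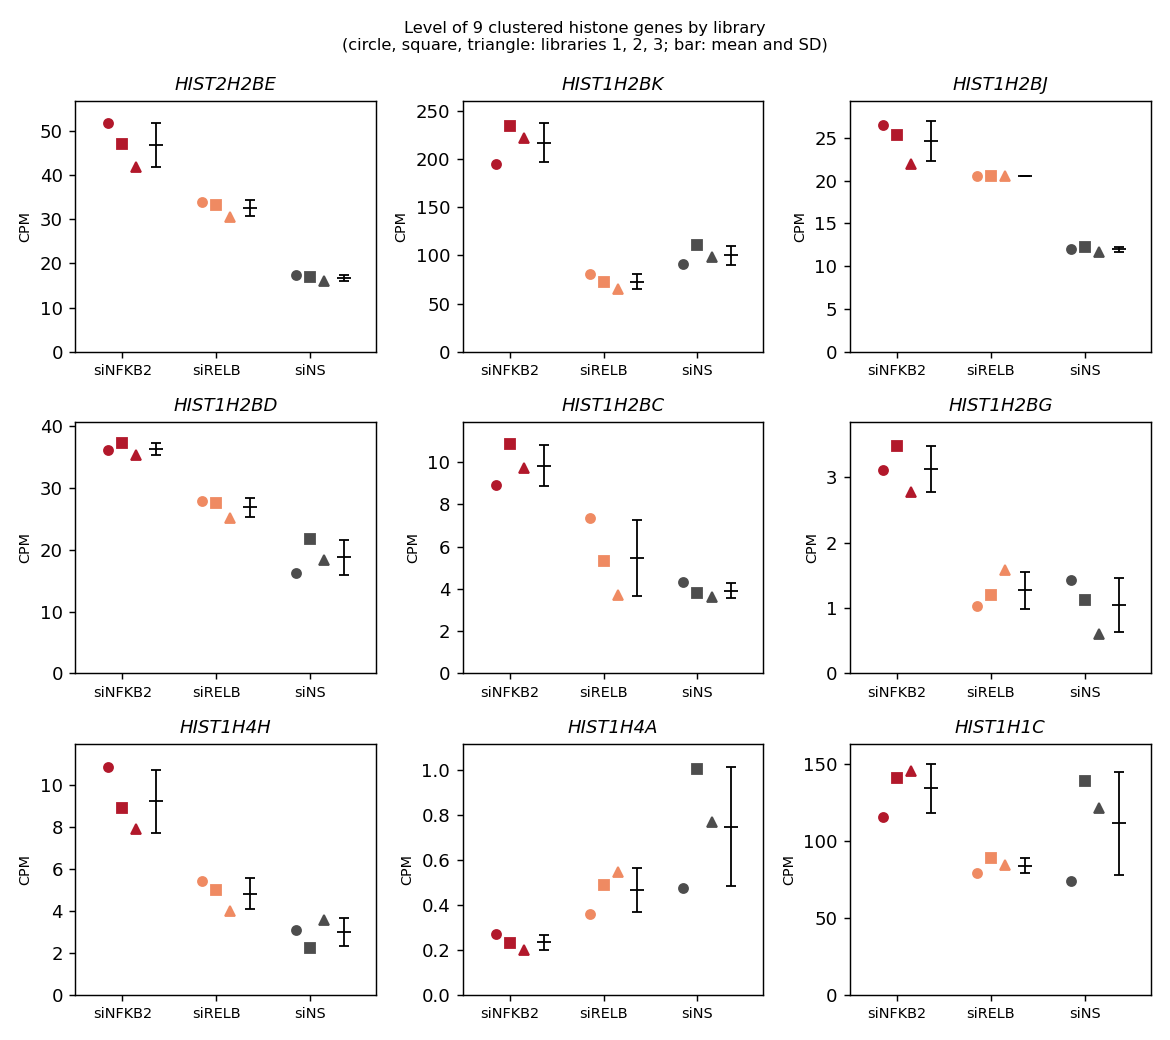
Level of 9 clustered histone genes in CPM (vertical axis, from 0) in each siNFKB2, siRELB and siNS library, with the mean and SD of 3 libraries beside the points. HIST2H2BE runs from 41.7 to 51.7 in siNFKB2, 30.5 to 33.9 in siRELB and 16.1 to 17.4 in siNS libraries, whereas HIST1H2BK stands high in siNFKB2 libraries alone.

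The other 3 tested H2B genes showed no call. HIST1H2BN was at 0.680 ± 0.111 CPM in siNFKB2 and 0.566 ± 0.0665 CPM in siNS libraries (SD, n = 3 each). HIST1H2BF was at 0.769 ± 0.222 CPM in siNFKB2 and 0.682 ± 0.132 CPM in siNS libraries. HIST2H2BC, annotated as a transcribed pseudogene, was at 0.270 ± 0.0641 CPM in siNFKB2 and 0.443 ± 0.167 CPM in siNS libraries. All 3 were low, and their libraries overlapped between these groups. A further H2B gene with 10 counts in some library, HIST1H2BM, was not tested.

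Among the H4 genes, 14 of the 15 encode one and the same protein, and the tested ones did not move together. HIST1H4H (H4C8, chr6:26277609-26285638, minus strand) was at 10.8, 8.88 and 7.87 CPM in siNFKB2, 5.43, 4.99 and 3.99 CPM in siRELB and 3.10, 2.25 and 3.57 CPM in siNS libraries, without overlap between groups. It rose in siNFKB2 cells (log2 fold change 1.62, SE 0.22, adjusted p = 0.00085, edgeR). In siRELB cells the value was 0.69 (SE 0.23, adjusted p = 0.16). HIST1H4A (H4C1, chr6:26021679-26021990, plus strand) was at 0.268, 0.232 and 0.199 CPM in siNFKB2, 0.359, 0.488 and 0.547 CPM in siRELB and 0.473, 1.00 and 0.768 CPM in siNS libraries. Its siNFKB2 libraries were the lowest of the 9 and it fell against siNS (-1.63, SE 0.43, adjusted p = 0.0189), a call resting on few reads. Without siNFKB2 library 2 or 3, or siNS library 2 or 3, the call was lost, with adjusted p up to 0.0686.

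HIST1H4B lay below the filter, with 3, 1 and 1 counts in siNFKB2, 0, 4 and 4 counts in siRELB and 10, 11 and 15 counts in siNS libraries. All 3 siNS libraries were above every other library. With the filter dropped it fell in siNFKB2 cells (log2 fold change -2.74, adjusted p = 0.0116, edgeR). It also passed the filter without siNS library 1, without siNFKB2 library 1, without any 1 siRELB library and without the 3 libraries numbered 1. It passed there only through the siNS libraries, where alone it reached 10 counts, so its falls there are no separate support. The log2 fold changes in siNFKB2 cells were -3.31 to -2.71 with 1 library left out. Without the 3 libraries numbered 1 they were -3.47 in siNFKB2 and -1.76 in siRELB cells. HIST1H4E was at 0.717 ± 0.165 CPM in siNFKB2 and 0.902 ± 0.120 CPM in siNS libraries (SD, n = 3 each). HIST4H4, the gene on chromosome 12, was at 0.750 ± 0.226 CPM in siNFKB2 and 0.536 ± 0.191 CPM in siNS libraries, and neither it nor HIST1H4E was called. HIST1H4I, with 3 to 5 counts in siNFKB2, 4 to 11 in siRELB and 3 to 7 in siNS libraries, was not tested.

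No H2A gene was called by the main edgeR fit in siNFKB2 against siNS cells, of 4 tested. At an unadjusted p below 0.05 there were 0 higher and 1 lower, HIST2H2AC, and DESeq2 called 0. With the replicate number as a block, edgeR called HIST1H2AC higher (log2 fold change 0.43, adjusted p = 0.0332) and HIST2H2AC lower (-1.38, adjusted p = 0.00906). HIST1H2AC, the H2A gene with the most counts, was at 32.9, 25.6 and 19.9 CPM in siNFKB2, 32.6, 23.8 and 20.0 CPM in siRELB and 20.3, 17.2 and 19.6 CPM in siNS libraries, so that library 3 of both knockdowns lay within the siNS range (siNFKB2 against siNS, log2 fold change 0.46, adjusted p = 0.148). HIST2H2AC was at 0.429, 0.580 and 1.12 CPM in siNFKB2, 0.359, 0.759 and 0.766 CPM in siRELB and 0.631, 1.94 and 3.35 CPM in siNS libraries. The siNS libraries were widely spread and overlapped the other groups (siNFKB2 against siNS, -1.48, SE 0.59, adjusted p = 0.0895). It was called lower in siNFKB2 cells with no filter (adjusted p = 0.0355, edgeR), without siNS library 1 (0.0108) and without the 3 libraries numbered 1 (0.00869), and the adjusted p was 0.392 without siNS library 3. HIST2H2AC shares 30.5% of its 50-base windows with another member. HIST1H2AE and HIST1H2AG had log2 fold changes of 0.52 and 0.11 with adjusted p of 0.295 and 0.779. HIST1H2AH, not tested, had 4 to 6 counts in siNFKB2, 1 to 4 in siRELB and 5 to 15 in siNS libraries.

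The tested H3 and H1 genes gave no call in siNFKB2 against siNS cells either. Of 4 H3 genes, 1 was higher and 1 lower at an unadjusted p below 0.05, and DESeq2 called 0. HIST1H3D was at 1.50, 1.74 and 1.99 CPM in siNFKB2 and 0.736, 1.38 and 1.10 CPM in siNS libraries, which did not overlap (log2 fold change 0.71, adjusted p = 0.11). A further annotated gene, AL031777.3, covers all of HIST1H3D on the same strand, so their reads cannot be told apart. HIST1H3A was at 0.376, 0.638 and 0.529 CPM in siNFKB2 and 0.631, 1.38 and 1.15 CPM in siNS libraries, with an overlap of 1 library in each group (-1.02, adjusted p = 0.0803). HIST1H3B and HIST1H3H had log2 fold changes of -0.36 and 0.0040, with adjusted p of 0.571 and 0.995. Of the 2 H1 genes, 0 passed even an unadjusted p below 0.05, and DESeq2 called 0. HIST1H1C, a linker histone gene, was at 116, 141 and 145 CPM in siNFKB2, 78.8, 88.7 and 84.0 CPM in siRELB and 73.8, 139 and 121 CPM in siNS libraries. siNS library 1 was far below the other siNS libraries, and the siNFKB2 and siNS groups overlapped (log2 fold change 0.27, SE 0.20, adjusted p = 0.364). HIST1H1E was at 1.33 ± 0.322 CPM in siNFKB2 and 1.49 ± 0.820 CPM in siNS libraries (SD, n = 3 each).

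**Figure D2:**
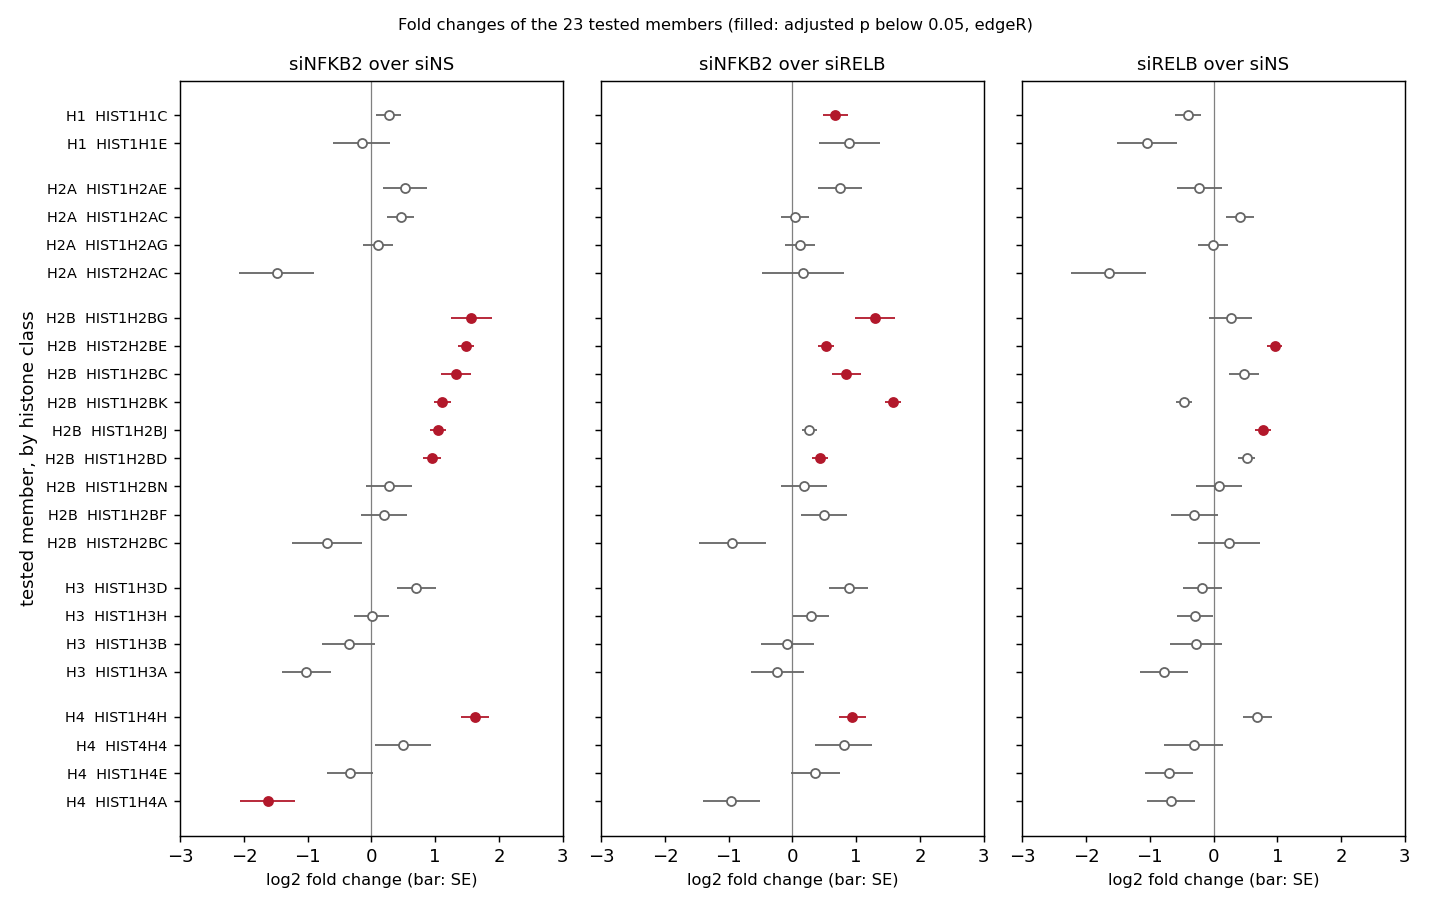
Log2 fold change with its SE (horizontal axis) of the 23 tested clustered histone genes, ordered by class, for siNFKB2 over siNS, siNFKB2 over siRELB and siRELB over siNS. Filled points passed an adjusted p of 0.05 with edgeR. In the siNFKB2 over siNS panel 6 of 9 H2B genes lie between 0.95 and 1.57, while H1, H2A and H3 genes have no filled point.

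In siRELB cells 2 of the 23 tested genes rose against siNS, HIST2H2BE and HIST1H2BJ, both of class H2B. That is 8.70% of the tested genes, against 1.21% of all 14815 genes higher in siRELB cells. With edgeR, 0 fell, beside 0.81% of all genes, and 2.02% of all genes were called in either direction. At an unadjusted p below 0.05, 4 were higher and 2 lower. DESeq2 called 3 higher and 1 lower, adding HIST1H2BD with a log2 fold change of 0.52 and HIST1H2BK with -0.46. The median over the 23 genes was -0.22, beside -0.016 over all genes, and 14 of the 23 values were below 0. Both calls depended on single libraries, while the values held. HIST2H2BE was no longer called without siNS library 3 or siRELB library 2 (adjusted p up to 0.058), and HIST1H2BJ was lost without siNS library 2 or 3 or siRELB library 2 or 3 (up to 0.108). Without siNS library 1 there were 5 calls, with HIST1H1C (-0.63), HIST1H2BK (-0.52) and HIST2H2AC (-2.07) lower in siRELB cells. Without the 3 libraries numbered 1 there were 7. Over all 18 alternatives the log2 fold change stayed between 0.93 and 1.00 for HIST2H2BE and between 0.76 and 0.78 for HIST1H2BJ.

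Set against siRELB directly, siNFKB2 cells had 7 of the 23 tested genes higher (30.4%), beside 12.2% of all genes. With edgeR 0 were lower, beside 14.3% of all genes, also 0 at an unadjusted p below 0.05 and 0 with DESeq2, and 26.6% of all genes were called in either direction. The 7 were HIST1H2BK, HIST1H2BG, HIST1H4H, HIST1H2BC, HIST1H1C, HIST2H2BE and HIST1H2BD, with log2 fold changes of 1.58, 1.30, 0.94, 0.85, 0.67, 0.53 and 0.43. The median over the 23 genes was 0.43, beside 0.02 over all genes. This comparison shares its siNFKB2 libraries with the first. HIST1H1C was called in this comparison and in neither of the others (SE 0.20, adjusted p = 0.0327), with its 3 siNFKB2 libraries above its 3 siRELB libraries. That call was lost when siNFKB2 library 2 or 3 or any 1 siRELB library was left out (adjusted p up to 0.0955). HIST2H2BE and HIST1H4H were lost without siRELB library 3 (adjusted p = 0.0572 and 0.0512, edgeR), HIST1H2BG without siNFKB2 library 2 or siRELB library 2 (up to 0.0546) and HIST1H2BC without library 2 or 3 of either group (up to 0.0804). HIST1H2BD was lost with no filter on low counts and without any 1 of the 6 libraries (up to 0.137). The replicate block added HIST1H1E (0.94, adjusted p = 0.0434, edgeR) and HIST1H3D (0.87, adjusted p = 0.0468). In the main fit HIST1H3D missed the threshold (0.88, adjusted p = 0.0532, edgeR), with its siNFKB2 libraries above its siRELB libraries. It was also called with a filter at a mean of 1 CPM, with only the 6 libraries compared, without siNS library 1 or 2 and without the 3 libraries numbered 1. Of the 7, only HIST1H2BK passed under all 18 alternatives tried.

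Summed by class, the H2B genes stood at 324, 360 and 335 CPM in siNFKB2 libraries, 174, 162 and 148 CPM in siRELB libraries and 145, 169 and 151 CPM in siNS libraries. The siNFKB2 sum was 2.19 times the siNS sum, and the siRELB and siNS sums overlapped. HIST1H2BK made up most of the siNFKB2 and siNS sums. In siRELB libraries it was at 72.6 ± 8.01 CPM, below the other H2B genes together. The other 20 H2B genes summed to 122.8 ± 8.37 CPM in siNFKB2, 88.7 ± 5.07 CPM in siRELB and 54.9 ± 3.20 CPM in siNS libraries (SD, n = 3 each), without overlap, 2.24 times the siNS sum in siNFKB2 and 1.62 times in siRELB cells. The H4 sum was 11.8 ± 1.19 CPM in siNFKB2, 7.21 ± 0.270 CPM in siRELB and 6.80 ± 0.567 CPM in siNS libraries (SD, n = 3 each). The siNFKB2 sum was 1.73 times the siNS sum. HIST1H4H alone averaged 9.20 CPM in siNFKB2, 4.80 CPM in siRELB and 2.97 CPM in siNS libraries. The rest of the mean H4 sum was smaller in siNFKB2 than in siNS libraries. The H2A sum was 32.8 ± 6.55 CPM in siNFKB2, 30.9 ± 6.21 CPM in siRELB and 26.8 ± 1.53 CPM in siNS libraries, and these ranges overlapped. Neither linker nor H3 genes showed the H2B pattern in their sums. The H1 sum was 135.4 ± 16.0 CPM in siNFKB2, 84.7 ± 5.35 CPM in siRELB and 112.8 ± 34.1 CPM in siNS libraries. The H3 sum was 4.33 ± 0.151 CPM in siNFKB2, 3.17 ± 0.373 CPM in siRELB and 4.10 ± 0.799 CPM in siNS libraries. The H2A, H1 and H3 sums overlapped between siNFKB2 and siNS libraries, so the higher total of 523.8 ± 26.6 CPM in siNFKB2, against 305.5 ± 46.8 CPM in siNS libraries, was mostly H2B. The 8 genes with the most counts summed to 503.5 ± 26.6 CPM in siNFKB2 and 284.8 ± 43.0 CPM in siNS libraries. The 68 others summed to 20.3 ± 0.402 CPM in siNFKB2 and 20.8 ± 3.82 CPM in siNS libraries.

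**Figure D3:**
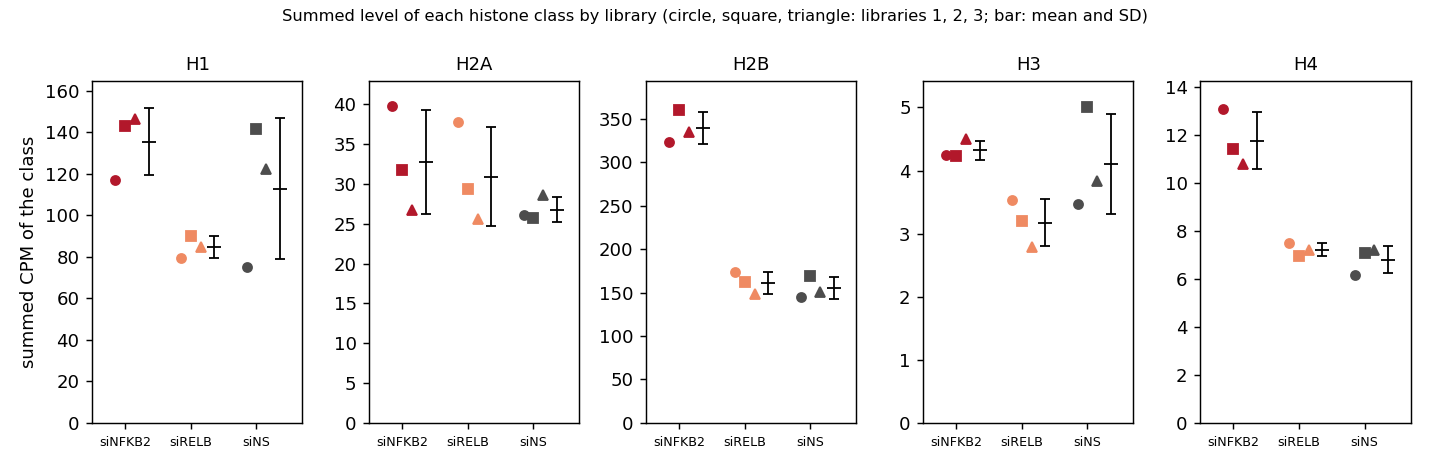
Summed CPM of each histone class (vertical axis, from 0) in each siNFKB2, siRELB and siNS library, with the mean and SD of 3 libraries. The H2B and H4 sums of the 3 siNFKB2 libraries lie above all other libraries, whereas the H1, H2A and H3 sums overlap between siNFKB2 and siNS.

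Head-to-head neighbours allowed the H2B and H2A genes to be compared within a library. In 4 pairs with starts 232 to 247 bases apart, both genes could be tested: HIST2H2BE and HIST2H2AC, HIST1H2BJ and HIST1H2AG, HIST1H2BG and HIST1H2AE, and HIST1H2BC and HIST1H2AC. By the main edgeR fit, the H2B gene rose in siNFKB2 against siNS cells in all 4 and the H2A gene in 0. At an unadjusted p below 0.05 or with DESeq2, 0 H2A genes were higher, but the replicate block called HIST1H2AC higher. HIST1H2BJ had 8.50, 9.93 and 10.4 counts per HIST1H2AG count in siNFKB2, 7.41, 10.2 and 8.52 in siRELB, and 4.87, 5.76 and 4.42 in siNS libraries. Both knockdowns lay above siNS in every library. HIST2H2BE had 120, 81.1 and 37.1 counts per HIST2H2AC count in siNFKB2, 94.6, 43.7 and 39.8 in siRELB, and 27.5, 8.68 and 4.80 in siNS libraries, again without overlap between each knockdown and siNS. HIST1H2BC had 0.271, 0.423 and 0.488 counts per HIST1H2AC count in siNFKB2, against 0.212, 0.222 and 0.185 in siNS libraries, which did not overlap. HIST1H2BG had 2.15, 1.62 and 1.27 counts per HIST1H2AE count in siNFKB2, against 1.35, 0.581 and 0.579 in siNS libraries, and there siNS library 1 lay within the siNFKB2 range. The mean log2 ratio was higher in siNFKB2 than in siNS by 2.73, 0.94 and 0.89 for HIST2H2BE, HIST1H2BJ and HIST1H2BC (two-sided exact permutation p = 0.1 each, 0.133 adjusted over the 4 pairs) and by 1.08 for HIST1H2BG (exact p = 0.2, adjusted 0.2). With 3 libraries against 3, 0.1 is the smallest p this test can give. In siRELB against siNS the differences were 2.35, 0.79, 0.03 and 0.53 for HIST2H2BE, HIST1H2BJ, HIST1H2BC and HIST1H2BG (exact p = 0.1, 0.1, 0.5 and 0.3, adjusted 0.2, 0.2, 0.5 and 0.4).

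**Figure D4:**
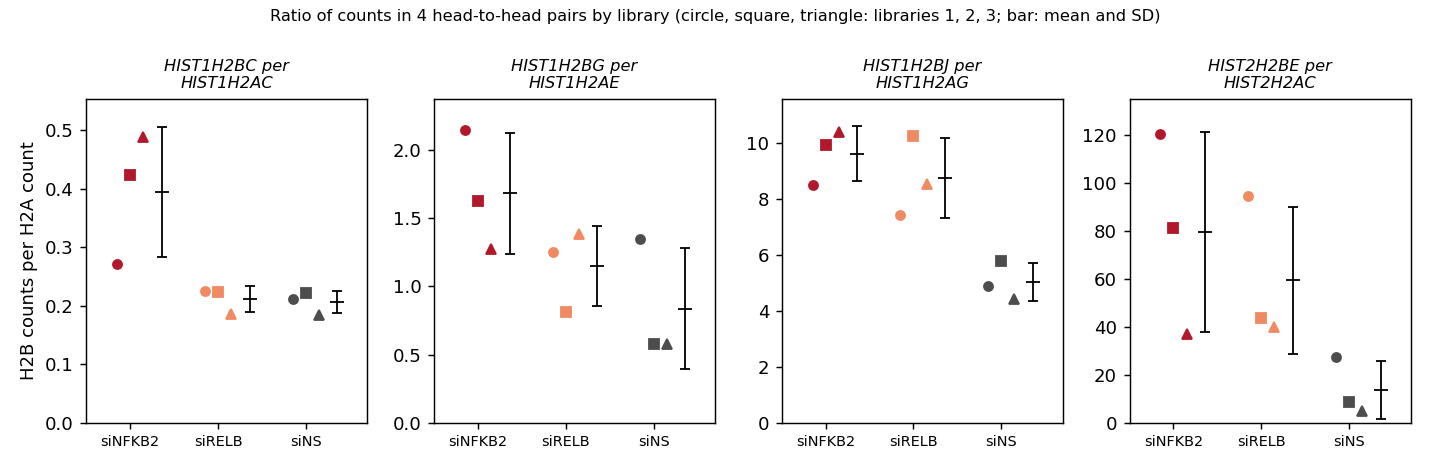
Counts of the H2B gene per count of its head-to-head H2A neighbour (vertical axis, from 0) in each siNFKB2, siRELB and siNS library for 4 pairs, with the mean and SD of 3 libraries. For HIST1H2BJ per HIST1H2AG all siNFKB2 and siRELB libraries, at 7.41 or more, lie above the siNS libraries, at 5.76 or less.

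Annotated 3′ ends were set beside the calls as a description, with groupings made after the values were seen. Of the 23 tested genes, 11 have a poly(A) signal at the end of a GENCODE transcript. In siNFKB2 against siNS cells 5 of these 11 rose and 0 fell, beside 12.6% and 13.5% of all 14815 tested genes, with a median log2 fold change of 0.46. Of the 12 without one, HIST1H2BK and HIST1H2BG rose and HIST1H4A fell, with a median of 0.23. A wider grouping also takes genes with a RefSeq span over 1000 bases or more than 500 annotated bases after the stem-loop. It takes in HIST1H2BK and HIST1H2BG, so that its 16 genes hold all 7 that rose, and the other 7 genes include HIST1H4A, the 1 that fell. As this grouping was drawn after the calls were seen, the split is no support for a part of the 3′ end, which was not tested. HIST1H2AC, HIST1H2AG, HIST1H3H, HIST1H4E, HIST1H2BN and HIST2H2BC have a poly(A) signal and were not called by the main edgeR fit in either comparison with siNS. With the replicate block HIST1H2AC was called higher in siNFKB2 cells.

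RNAs without a long poly(A) tail that pass oligo-dT selection varied between libraries. Mitochondrial rRNA made up 0.519%, 1.01% and 2.68% of counts in siNFKB2, 0.379%, 0.653% and 0.856% in siRELB and 0.406%, 1.33% and 0.630% in siNS libraries. snoRNAs summed to 205, 220 and 350 CPM in siNFKB2, 188, 243 and 259 CPM in siRELB and 211, 305 and 221 CPM in siNS libraries. RMRP, a non-coding RNA, was at 12.2, 6.96 and 5.96 CPM in siNFKB2, 3.18, 9.27 and 6.02 CPM in siRELB and 8.78, 16.1 and 7.19 CPM in siNS libraries. These 3 measures overlapped between the groups. Small Cajal body RNAs summed to 10.7, 14.2 and 25.3 CPM in siNFKB2 and 5.84, 7.59 and 9.19 CPM in siRELB libraries. In siNS libraries they were at 7.26, 14.2 and 9.93 CPM. U snRNAs summed to 0.913, 0.986 and 1.12 CPM in siNFKB2 and 0.205, 0.759 and 0.547 CPM in siRELB libraries. In siNS libraries these were at 0.473, 0.750 and 1.15 CPM. Both sums were higher in every siNFKB2 than in every siRELB library, while siNS overlapped each knockdown. siNFKB2 library 3, with the most mitochondrial rRNA, had the lowest HIST2H2BE and HIST1H4H of its group and lay between the others for HIST1H2BK. Other members went both ways. HIST1H2BJ and HIST1H2BD were lowest in that library of the group, and HIST1H1C, HIST1H3D, HIST1H2AE and HIST2H2AC were highest. The part of tail-less RNA in the histone values was not tested.

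Genes that act with histones in S phase moved the other way in siNFKB2 cells. Of 32 S phase genes, 29 fell and 0 rose in siNFKB2 against siNS, beside 13.5% and 12.6% of all genes, with a median log2 fold change of -0.91, and 0 rose at an unadjusted p below 0.05 or with DESeq2. They include MCM3 (-1.41), a subunit of the replicative helicase, UHRF1 (-1.46), which recruits DNA methylation to new DNA, CDC45 (-1.09), a helicase partner, and TK1 (-1.15), thymidine kinase. Of 22 histone chaperone genes 12 fell and 0 rose, beside the same shares, by edgeR and by DESeq2 (1 higher at an unadjusted p below 0.05), among them NASP (-1.39), which binds soluble histones, and CHAF1A (-0.99) and CHAF1B (-0.91), subunits of the assembly factor CAF-1. In siRELB against siNS, 0 genes of either list were called by edgeR. At an unadjusted p below 0.05 in siRELB cells, 4 S phase genes and 1 chaperone gene were lower and 0 and 1 were higher, and DESeq2 called 1 S phase gene lower and 0 chaperone genes.

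Of 32 tested genes of histone mRNA transcription, processing and decay, 1 rose and 7 fell in siNFKB2 against siNS, beside 12.6% and 13.5% of all genes, with a median of -0.0064. The 1 that rose was TUT7, which adds uridines to histone mRNA (log2 fold change 0.77, SE 0.12, adjusted p = 0.00155, edgeR), at 53.9, 52.2 and 59.0 CPM in siNFKB2 and 36.4, 30.6 and 29.6 CPM in siNS libraries. E2F1 (-1.41), CCNE1 (-1.16), the cyclin that with CDK2 starts S phase, and POU2F1 (-0.88), which encodes the octamer-binding factor OCT-1, were among the 7 lower. POU2F1 was at 39.3, 29.5 and 28.4 CPM in siNFKB2, 63.4, 54.7 and 54.2 CPM in siRELB and 70.6, 52.7 and 55.5 CPM in siNS libraries, below all others in siNFKB2. The part of these genes in the histone values was not tested.

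Histone genes outside the clusters, most of whose mRNAs carry a poly(A) tail through the whole cycle, did not follow the H2B genes. Of 11 tested, 7 fell and 0 rose in siNFKB2 against siNS, beside 13.5% and 12.6% of all genes, with 0 higher at an unadjusted p below 0.05 or with DESeq2. H1F0, the linker histone of resting cells, was at 328, 181 and 186 CPM in siNFKB2, 593, 515 and 539 CPM in siRELB and 737, 851 and 906 CPM in siNS libraries. It fell in siNFKB2 cells (log2 fold change -1.84, SE 0.21, adjusted p = 0.000409, edgeR), while HIST1H1C, its clustered relative, was not called. H2AFY2, a macroH2A gene, fell in both knockdowns, with log2 fold changes of -1.65 in siNFKB2 and -1.17 in siRELB cells against siNS. H1FX (-0.91) and CENPA (-0.54), the centromeric H3, were also lower in siNFKB2 cells.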

How the data were processed

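Raw read counts per gene were deposited by the authors for 9 libraries. Per the submitters' processing notes, Trimmomatic 0.38, STAR 2.7.1a, Subread 1.6.4 and GRCh38.p13 were used. Per the labels' protocols, libraries were oligo-dT selected. Strand and the treatment of reads with several matches are not stated. Libraries were scaled with TMM, genes were filtered with filterByExpr, and 14815 genes were tested in edgeR 4.0.16 (R 4.3.3) by quasi-likelihood with 1 mean per group over all 9 libraries and Benjamini-Hochberg adjustment over all of them. A call is an adjusted p below 0.05. CPM is counts per 1000000 of the TMM-scaled library size. DESeq2 1.42.0 was an alternative. The fit was tested on simulated data. No pair of libraries agreed within sampling noise. The members and lists were chosen with earlier results of these data known. Every tested member could be named, untested members only with 10 counts in some library, and up to 4 genes of each other list by smallest adjusted p. All 76 symbols matched GENCODE 29 and RefSeq. Protein sequences were not used here. Same-numbered siNFKB2 and siRELB libraries deviated together from their group means (correlations of 0.54, 0.17 and 0.45), so the replicate number was also fitted as a block there.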

Additional observations from a re-analysis of the deposited data

How the results depend on the processing

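In siNFKB2 against siNS, 8 genes were called and 7 to 11 under all alternatives. The 7 that rose were called under each of 18, including no filter, other scaling, DESeq2 and each library left out. In siRELB against siNS, 2 were called, 0 to 5 with 1 library left out, 4 with DESeq2 and 7 without the 3 libraries numbered 1, an alternative chosen after seeing the data. In siNFKB2 against siRELB, 7 were called and 2 to 8 with 1 library left out. The main edgeR fit took the replicate numbers as pairs in no comparison. Against siNS, same-numbered libraries correlated at 0.58, 0.05 and 0.09 with siNFKB2 and at 0.59, 0.38 and 0.04 with siRELB. There the replicate block gave 10 calls for siNFKB2, adding HIST1H2AC higher (0.43) and HIST2H2AC lower (-1.38), and 5 for siRELB. In siNFKB2 against siRELB it gave 9. Changes of sign were seen in genes without a call. With 1 library left out, log2 fold changes in siNFKB2 against siNS ran from -0.36 to 0.38 for HIST1H1E, -0.047 to 0.24 for HIST1H2AG, -0.0090 to 0.40 for HIST1H2BF and -0.12 to 0.12 for HIST1H3H. In siRELB against siNS they ran from -0.44 to 0.11 for HIST1H2AE, -0.13 to 0.10 for HIST1H2AG, -0.014 to 0.56 for HIST1H2BG, -0.13 to 0.33 for HIST1H2BN, -0.67 to 0.017 for HIST1H3B, -0.39 to 0.027 for HIST1H3D and -0.0078 to 0.62 for HIST2H2BC. In siNFKB2 against siRELB they ran from -0.16 to 0.25 for HIST1H2AC, -0.036 to 0.25 for HIST1H2AG, -0.058 to 0.39 for HIST1H2BN, -0.38 to 0.31 for HIST1H3B and -0.30 to 0.43 for HIST2H2AC. Without the libraries numbered 1, HIST1H2AG (siNFKB2 against siNS) was at -0.029, HIST1H3H at -0.013 and HIST1H2BN (siRELB against siNS) at -0.10. HIST1H3H was at -0.022 with no filter and at -0.00093 with the replicate block. The cause was not tested. Of the 76 genes, 53 did not pass the filter, and 30 of these were at 0. Counts cannot tell tailed histone mRNA from carried-over stem-loop mRNA, and reads shared between near-identical copies cannot be placed.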

Other observations

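The genes whose level ran most like that of HIST2H2BE over the 9 libraries were LZIC, ABAT, PTPRR, C1orf109 and LOC105374985. Their Pearson correlation with it on the log2 CPM scale was 0.98, 0.98, 0.98, 0.98 and 0.97, among 10615 genes averaging 5 CPM or more. The 9 libraries fall into 3 groups, and the correlation is a description. LOC105374985 is listed next to HIST1H4H in the deposited gene order.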
